A study of Mus musculus with 2 samples.

Results

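The genes described are 10 genes of the ovarian surface epithelium, namely Dmkn, Krt7, Krt8, Krt18, Krt19, Upk1b, Upk3b, Msln, Cdh1 and Lgr5, read on 2 single-colour Agilent arrays of cultured mouse ovary. All non-control probes of the listed genes were taken, found through their RefSeq accessions. This gave 10 of 20654 genes with a symbol, 11 of 55674 probes and 29 of 59305 spots. The members were chosen by their log2 ratio between these same arrays, together with their known place in the epithelium, so the ratios of its members are a description and nothing is read from their being high.

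The study asked which genes respond to tachykinins (TKs), neuropeptides such as substance P, in the ovary before gonadotropins take over. Ovaries of 2-week-old mice were cut lengthwise, and the pieces were kept in organ culture for 3 days. The agonist group received tachykinin receptor (TKR) agonists and the antagonist group TKR antagonists, with each ligand at 1 μM by the study's methods. The ligands acted on the receptors TACR1, TACR2 and TACR3, and the labels do not name the single compounds. Each group was 1 array. All ligands of a kind were given together and no culture without ligand was analysed here, so a ratio between the arrays does not tell which treatment moved a gene. The strain of these mice and the number of ovaries behind each RNA are not given in the sources used here.

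The surface epithelium is the single layer of flattened to cuboidal cells that covers the ovary. It is continuous with the mesothelium of the body cavity, and it has simple epithelial keratins together with mesothelial surface proteins. It is torn and repaired at each ovulation, and cells with the receptor Lgr5 have been described as its progenitors in the mouse. In a whole ovary it is a thin rim around stroma, vessels and follicles. In bulk RNA of this kind, fewer cells of a type and less RNA per cell cannot be told apart.

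With 1 array per group there was no spread between ovaries, no test was made, and array and treatment cannot be told apart. The number of arrays limits the precision. A signal is the processed intensity of a spot after background correction, in arbitrary units. A log2 ratio is agonists minus antagonists, after each array was divided by the 75th percentile of its signals, at 672 on the agonist side and 569 on the antagonist side. This step lowered every log2 ratio by 0.24. The software marked 65.4% of agonist spots and 61.6% of antagonist spots as well above background, and none of the 59305 was saturated on either array. Between the spots of probes printed 10 times, the SD of the log2 ratio had a median of 0.07 over 284 probes. For probes with 1 spot, the error that the scanner software gives for each signal was carried into the ratio. These errors concern the reading of a spot and not the biology.

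All 11 probes were well above background on both arrays, as were 33073 of all 55674 probes. The 9 genes other than Dmkn are familiar markers of this epithelium or of mesothelium, but most are shared with other epithelia, so their detection does not by itself place the RNA in the surface layer. Of other ovarian markers, 6 of 6 oocyte genes and 7 of 7 granulosa cell genes were above background on both arrays. So were 15254 of all 20654 genes with a symbol, so detection alone does not identify the tissue. All 10 genes had a log2 ratio above 0, against 39.2% of the 16274 genes measured on at least 1 array. At least a 2-fold higher signal with the agonists was found for 5 of the 10 genes, against 4.51% of all genes. At 4-fold, Dmkn alone was higher, against 0.817% of all genes. None was 2-fold lower, against 0.854% of all genes. Counted as probes above background on both arrays, 6 of 11 were at least 2-fold higher, against 2.69% of all such probes. Of all genes above background on both arrays, 4.01% were at least 2-fold higher. The median log2 ratio of the 10 genes was 1.01, and that of all genes was -0.08.

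**Figure D1:**
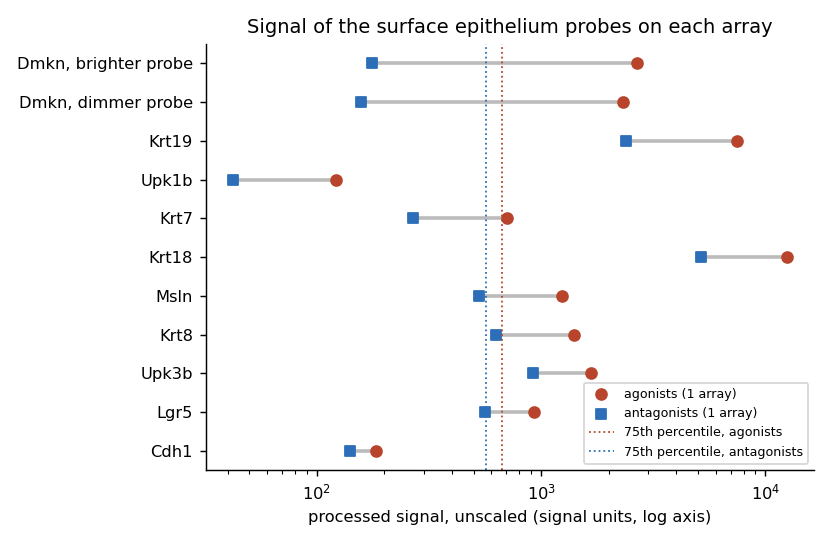
Processed signal (arbitrary units, log axis) of each of the 11 probes of the 10 genes on each of the arrays, joined by a line within a probe. Where a probe has 10 spots the point is their mean; the agonist point lies to the right in every row, with the widest step for the probes of Dmkn, and rows are not to be set against each other because probes differ in brightness.

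Dmkn encodes dermokine, a secreted glycoprotein best known from the upper layers of the epidermis. Its brighter probe read 2678 with the agonists and 176 with the antagonists. Its dimmer probe read 2328 with the agonists and 158 with the antagonists. Both probes were thus high on the agonist array and low, though clear of background, on the antagonist array. The log2 ratio was 3.68 for the brighter probe, a 12.9-fold difference with a software error of 0.21. It was 3.64 for the dimmer probe, a 12.5-fold difference with the same size of error. The files give the same transcript, NM_001166173, for both probes. Where the probes lie on it was not examined, so it is not known here whether they read the same isoforms.

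The spots printed around the Dmkn spots were read as well, counting only non-control spots well above background on both arrays. Within 5 rows and columns, the 80 spots around the brighter probe had a median log2 ratio of -0.13, and the highest was 1.59. The 67 spots around the dimmer probe had a median of -0.05, and the highest was 0.76. None of these spots came close to the ratio of Dmkn itself. Nearby spots that were dim on either array were left out, so their ratios were not examined. The local background beside the Dmkn spots was 37 and 32 with the agonists, against 41.5 and 43 with the antagonists.

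Among the 15254 genes above background on both arrays, Dmkn ranked 5 from the highest ratio. The 4 genes above it were F13a1 with a log2 ratio of 4.43, Paqr5 with 4.28, Fabp4 with 3.82 and Cck with 3.70. They are named here because they hold those ranks. Their antagonist signals were dim, at 25.4, 25.9, 44.2 and 34.6 in that order, and signals near background limit such ratios. A further probe of Paqr5 gave 2.55. Among the 8427 bright genes, those whose mean signal reached the 75th percentile, the 5 nearest in ratio to Dmkn all lay below it. They were Ahsg at 3.16, C3 at 3.10, Ly6c1 at 3.07, Ccl6 at 2.89 and Marco at 2.84. A further probe gave 2.22 for C3 and 3.20 for Ly6c1. Ahsg encodes fetuin-A, C3 a complement component, Ccl6 a chemokine and Marco a scavenger receptor of macrophages. Likeness here is the size of 1 ratio over 2 arrays, and the surface epithelium genes nearest to Dmkn in ratio were further away than any of these.

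On mouse chromosome 7, Dmkn lies between Sbsn and Krtdap, which also encode secreted proteins of the differentiating epidermis. Sbsn read 1690 with the agonists against 1169 with the antagonists, giving a log2 ratio of 0.29. Krtdap read 69.7 with the agonists, where it was above background, and 15.2 with the antagonists, where it was not well above background. Its signal was therefore higher with the agonists by at least 2.96-fold. Both neighbours thus lay on the same side of 0 as Dmkn, Sbsn with a smaller ratio and Krtdap with a lower bound only.

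The RefSeq promoter table (GRCm38.p6) held windows for 5 of the 10 genes, Dmkn, Krt7, Krt8, Krt18 and Upk3b. The 250 bases before a start were searched on both strands for TGANTCA, the AP-1 motif, AACCGG, the grainyhead motif, CACCTG, the E-box bound by Snail and Zeb factors, and TATAAA, the TATA box. No pair of these motifs shares letters in the matches given here. For Dmkn, the gene with the widest difference, the windows of its 2 separate starts are shown, both on the + strand, with the AP-1 match in capitals. The upstream window is chr7:30763506-30763755 and the downstream window is chr7:30776155-30776404.
Dmkn upstream start: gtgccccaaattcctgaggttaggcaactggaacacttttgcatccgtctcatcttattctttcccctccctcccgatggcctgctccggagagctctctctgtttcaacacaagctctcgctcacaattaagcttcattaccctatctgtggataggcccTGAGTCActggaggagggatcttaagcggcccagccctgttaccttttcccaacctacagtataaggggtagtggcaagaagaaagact
Dmkn downstream start: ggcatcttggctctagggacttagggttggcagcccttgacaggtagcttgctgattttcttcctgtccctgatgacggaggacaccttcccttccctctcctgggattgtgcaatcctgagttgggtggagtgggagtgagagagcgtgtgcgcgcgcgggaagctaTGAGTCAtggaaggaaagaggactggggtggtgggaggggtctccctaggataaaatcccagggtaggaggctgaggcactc
Counting back from -1 at the base before the start, TGAGTCA spans -89 to -83 in the upstream window and -82 to -76 in the downstream window. The table holds a further Dmkn window that begins 2 bases after the upstream one and has the same match. Of all 32851 windows of the table, 6.75% hold TGANTCA. The probes were not assigned to either start, and a match of letters is not a binding site.

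Simple epithelial keratins form filaments as pairs of a type I and a type II chain, and in the surface epithelium Krt18 and Krt19 are type I while Krt7 and Krt8 are type II. Krt19 read 7501 with the agonists against 2400 with the antagonists, giving a log2 ratio of 1.40. Krt18 read 12453 with the agonists against 5166 with the antagonists, giving a log2 ratio of 1.03. The type I chains were therefore 2.64-fold and 2.04-fold higher with the agonists. Krt7 read 706 with the agonists against 270 with the antagonists, giving a log2 ratio of 1.15. Krt8, the usual partner of Krt18, read 1400 with the agonists against 629 with the antagonists, giving a log2 ratio of 0.91. The type II chains were 2.21-fold and 1.88-fold higher. The keratin ratios lay within 0.49 of each other on the log2 scale, with software errors of 0.20 to 0.21 for each, and each gap between chains next to each other in order was smaller than the combined error.

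Krt8 and Krt18 are neighbours on chromosome 15, and Krt7 lies on the same chromosome. Their windows are shown because these genes have similar ratios. The Krt7 window is chr15:101412153-101412402 on the + strand, the Krt8 window chr15:102004343-102004592 on the - strand and the Krt18 window chr15:102027966-102028215 on the + strand, each written in the direction of the gene with CACCTG in capitals.
Krt7: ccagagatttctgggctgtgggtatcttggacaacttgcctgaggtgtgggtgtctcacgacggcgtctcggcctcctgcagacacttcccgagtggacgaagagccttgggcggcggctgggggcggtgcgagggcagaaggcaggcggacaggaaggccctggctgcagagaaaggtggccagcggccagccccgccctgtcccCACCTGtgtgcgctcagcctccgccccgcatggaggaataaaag
Krt8: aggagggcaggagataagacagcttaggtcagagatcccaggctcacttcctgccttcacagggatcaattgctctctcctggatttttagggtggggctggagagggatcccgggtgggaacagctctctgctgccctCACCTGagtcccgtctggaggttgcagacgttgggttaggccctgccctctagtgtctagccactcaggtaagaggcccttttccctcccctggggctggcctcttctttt
Krt18: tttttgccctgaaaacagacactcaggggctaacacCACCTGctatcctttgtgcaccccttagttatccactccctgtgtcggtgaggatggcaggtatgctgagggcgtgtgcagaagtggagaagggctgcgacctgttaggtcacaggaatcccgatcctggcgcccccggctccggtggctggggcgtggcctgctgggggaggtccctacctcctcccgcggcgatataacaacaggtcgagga
The match spans -44 to -39 in Krt7, -111 to -106 in Krt8 and -214 to -209 in Krt18. CACCTG is a common motif, present in 17.2% of all windows, and the other 3 motifs had no match in these 3 windows. The grainyhead motif occurs in 5.62% of all windows and the TATA box in 12.4%. The window of Upk3b, chr5:136038246-136038495 on the + strand, had none of the 4 motifs.

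Uroplakins are membrane proteins of the bladder lining, and Upk1b and Upk3b are also made by mesothelium. Upk1b, a tetraspanin, was printed in 10 spots. With the agonists its spots ran from 110 to 133 with a median of 121, and with the antagonists from 27.8 to 50.6 with a median of 45.4. The means were 121 ± 6.44 with the agonists against 42.5 ± 7.73 with the antagonists (SD, n = 10 spots of 1 array). All agonist spots were above all antagonist spots, also after scaling, where the gap was 0.88 on the log2 scale. The log2 ratio of Upk1b was 1.32, a 2.49-fold difference, and single spots gave 1.02 to 1.90. The ratio leaves out 1 antagonist spot that the software marked as an outlier. The antagonist spots lay near background, and the SD of the ratio between spots was 0.27, above the 95th percentile of 0.26 for probes with 10 spots. With the normexp background correction in place of the software's, the ratio of Upk1b was 0.52. Upk3b read 1663 with the agonists against 917 with the antagonists, giving a log2 ratio of 0.62 or 1.53-fold.

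Msln encodes mesothelin, a cell surface glycoprotein anchored by a lipid and shed from mesothelium. Msln read 1242 with the agonists and 528 with the antagonists. Its log2 ratio was 0.99 or 1.99-fold, just under the 2-fold threshold that Krt18 just passed.

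Cdh1 encodes E-cadherin, the adhesion protein of epithelial junctions, which in the ovary is also made by oocytes. Its 10 spots ran from 148 to 216 with a median of 187 with the agonists, and from 124 to 150 with a median of 141 with the antagonists. The means were 184 ± 18.1 with the agonists against 140 ± 8.59 with the antagonists (SD, n = 10 spots of 1 array). The groups of spots overlapped after scaling. The log2 ratio of Cdh1 was 0.15 or 1.11-fold, with spot ratios from -0.16 to 0.33 and an SD of 0.15, so single spots gave both signs. The ratio was smaller than the software error of 0.21. Of the genes on both arrays, 74.6% had a lower ratio. Lgr5, a receptor for R-spondins that raises Wnt signalling, read 929 with the agonists and 565 with the antagonists. Its log2 ratio was 0.48 or 1.39-fold.

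**Figure D2:**
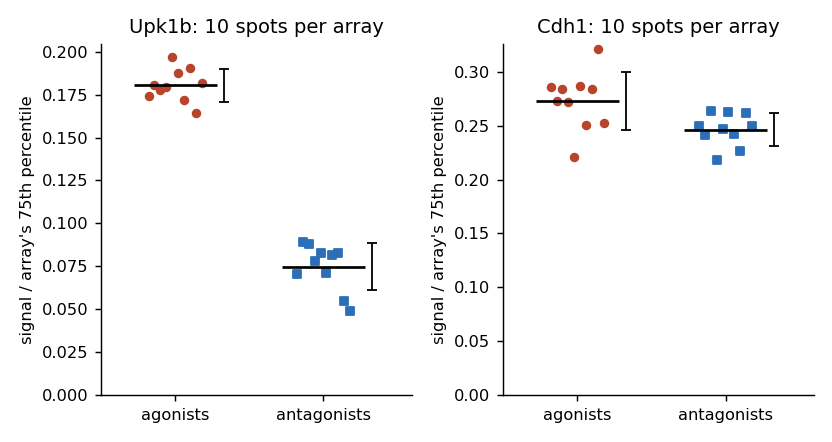
Each of the 10 spots of Upk1b and of Cdh1 on the agonist and the antagonist array. Values are signal divided by the 75th percentile of the array on a linear axis, with the mean as a black line and the SD over spots as a bar. The spots of Upk1b fall in separate groups, whose gap is 0.88 when taken as log2, and those of Cdh1 overlap.

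In order of the ratio the genes ran Dmkn, Krt19, Upk1b, Krt7, Krt18, Msln, Krt8, Upk3b, Lgr5 and Cdh1. Dmkn stood 2.28 above Krt19 on the log2 scale, with a combined software error of 0.29 for that gap. From Krt19 to Krt8, each gap between neighbours was 0.03 to 0.17 and smaller than its error. Krt8 was 0.30 above Upk3b and Lgr5 was 0.33 above Cdh1, both close to an error of 0.29. Upk3b was 0.14 above Lgr5, within the error. The 10 ratios had an SD of 0.96, and without Dmkn, a choice made after its value was seen, the SD was 0.41. Without Dmkn the median was 0.99, and 4 of 9 genes were at least 2-fold higher, against 4.51% of all genes.

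**Figure D3:**
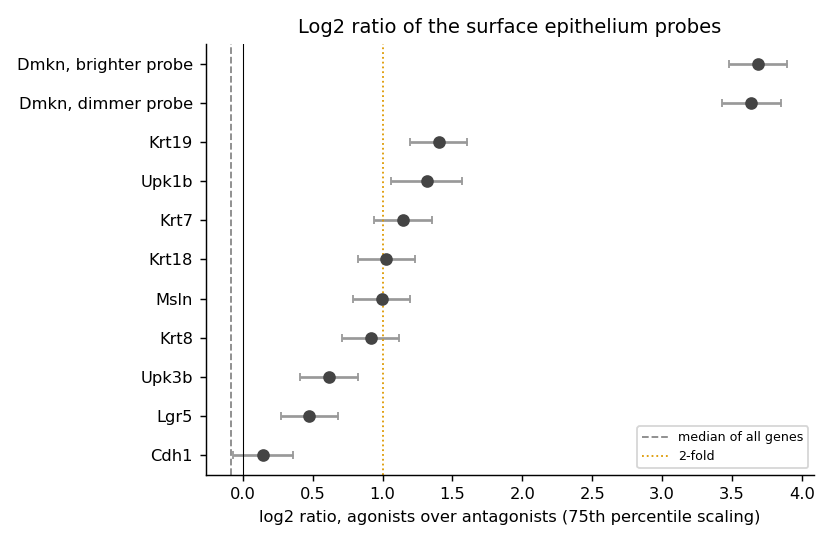
Log2 ratio, agonists over antagonists, of each of the 11 probes with the software error as a bar, beside the median of all genes at -0.08 and the 2-fold line. Both probes of Dmkn stand apart near 3.7, and the other genes run from 1.40 for Krt19 down to 0.15 for Cdh1.

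**Figure D4:**
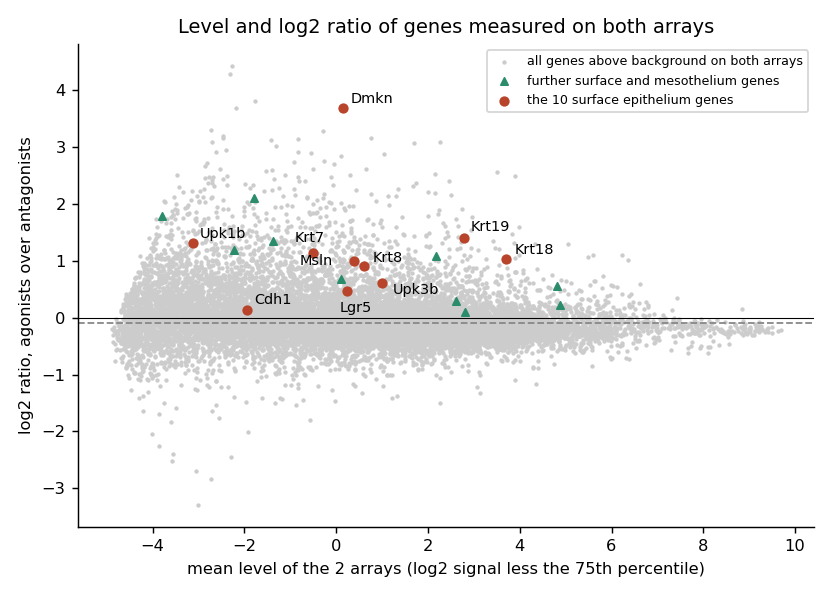
Log2 ratio against the mean level of the 2 arrays (log2 signal less the 75th percentile) for all 15254 genes above background on both arrays, with the 10 surface epithelium genes in red and the further surface and mesothelium genes as green triangles. Dmkn lies near the 75th percentile with a ratio of 3.68, and Upk1b lies at the dim end.

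Leaving out the scaling raised all genes by the same step, while quantile normalization and loess moved them unequally. Without scaling the median of all genes was 0.15 in place of -0.08, and 7 of the 10 genes were at least 2-fold higher, Msln and Krt8 being added, against 7.19% of all genes under that setting. The 10 genes stayed above 0 under each of the scalings and background corrections tried. Relative to the median of all genes, the log2 ratio of Dmkn was 3.77 and ran from 3.33 to 3.77 over the 11 alternatives. That of Krt19 ran from 1.48 to 1.54 on the same scale, and that of Cdh1 from 0.14 to 0.25.

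Further genes known from the surface epithelium or mesothelium formed a list of 13, of which 12 had a probe and 10 were above background, all 10 on both arrays. All 10 had a log2 ratio above 0, against 39.2% of all genes, and 5 passed 2-fold, against 4.51%. This list too was chosen with earlier results of these data known, so nothing is read from these counts. Their median was 0.88, against 1.01 for the first 10 genes. Nkain4, a membrane protein that binds the sodium pump, read 402 with the agonists against 78.6 with the antagonists, giving a log2 ratio of 2.11. Lrrn4, a leucine-rich repeat protein of mesothelium, read 90.1 with the agonists against 22.1 with the antagonists, giving a log2 ratio of 1.79. These were the highest ratios of the list. The antagonist signal of Lrrn4 was close to 19.9, the dimmest signal counted as well above background on that array, which limits its ratio. Gpm6a, a membrane glycoprotein, read 411 against 136, a log2 ratio of 1.36. Podxl, a sialomucin that vessels make too, read 218 against 80.7, a log2 ratio of 1.19. Rspo1, a secreted ligand of Lgr receptors, read 4401 with the agonists against 1755 with the antagonists, giving a log2 ratio of 1.08.

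The other 5 genes of that list stayed under 2-fold. Bnc1, a zinc finger protein, read 916 against 482 and had a log2 ratio of 0.69. The retinaldehyde dehydrogenases Aldh1a1 and Aldh1a2 had log2 ratios of 0.55 and 0.10. Ezr, the linker of membrane and actin, had 0.29, and Wt1, a transcription factor that granulosa cells also make, had 0.23. Muc1 and Pkhd1l1 were not well above background on either array, and Muc16 was not analysed here.

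Genes of epithelial cells in general were read on 2 lists, beside the 39.2% of all genes above 0 and the 4.51% at least 2-fold higher. Of 17 genes of epithelial junctions, 11 were above 0 and 2 at least 2-fold higher, with a median of 0.22. The tight junction protein Cldn3 had a log2 ratio of 1.91 and the adhesion protein Epcam 1.07, while desmoplakin, encoded by Dsp, had -0.47 and the protease inhibitor Spint2 -0.19, where a dimmer probe gave 0.07. Of 10 regulators of the epithelial state, 6 were above 0 and none was 2-fold higher, with a median of 0.34. The transcription factor Ovol1 had 0.75 and the splicing factor Esrp2 0.46, while the grainyhead factor Grhl1 had -0.12 and the splicing factor Esrp1 -0.10. The antagonist signals of Cldn3 and Ovol1 were dim, at 25.8 and 24.9, which limits their ratios. Without scaling, 16 of the 17 junction genes and all 10 regulators were above 0, but the median of all genes was then also above 0, at 0.15. The sign of the small negative values thus depends on the scaling. For Dsp the value stayed below 0. With the normexp background correction in place of the software's, the medians fell to 0.0075 for the junction genes and 0.011 for the regulators.

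Among 12 other keratins above background on at least 1 array, 8 were above 0 and 3 at least 2-fold higher, with a median of 0.58. Over all genes these shares were 39.2% and 4.51%. Krt20 had a log2 ratio of 2.44 and Krt15 2.26, more than any of the 4 keratins above in the main setting. Their antagonist signals were dim, at 44.22 for Krt20 and 35.015 for Krt15, and signals near background limit such ratios. With the normexp background correction, the median of these other keratins fell from 0.58 to 0.069. With the mean over the probes of a gene, the median rose to 0.90. Krt5, a basal layer keratin, had -0.28 and Krt16 -0.07, the latter above 0 without scaling. Krt10 was counted below 0, at -0.06, where a dimmer probe gave 1.15. Neither of the other uroplakins above background on at least 1 array had a ratio above 0. Upk1a read 228 with the agonists against 234 with the antagonists, giving a log2 ratio of -0.28. Upk3a was above background with the antagonists only, at 36.3 against 13.1, which gave a bound of -1.24. Upk2 was not well above background on either array.

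Around Cdh1, 5 cadherin and catenin genes had a median of 0.08 and none was 2-fold higher. Cdh11, a cadherin of mesenchyme, had a log2 ratio of 0.70 and alpha-catenin, encoded by Ctnna1, 0.18, while N-cadherin, encoded by Cdh2, had -0.30 and beta-catenin, encoded by Ctnnb1, -0.10. Around Lgr5, 7 genes of the R-spondin and Wnt pathway had a median of 0.10. The receptor Lgr6 had 0.43 and the Wnt target Axin2 0.35, while the Wnt target Sp5 had -0.41 and the receptor Lgr4 -0.11. Of 7 genes linked to the mesenchymal state, 6 were above 0 and 1 was 2-fold higher, with a median of 0.28. Over all genes these shares were 39.2% and 4.51%. Fibronectin, encoded by Fn1, had 1.21 and vimentin, encoded by Vim, 0.56, while Snai1 had -0.04 and Snai2 0.14. Without scaling, Ctnnb1, Lgr4 and Snai1 were above 0.

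**Figure D5:**
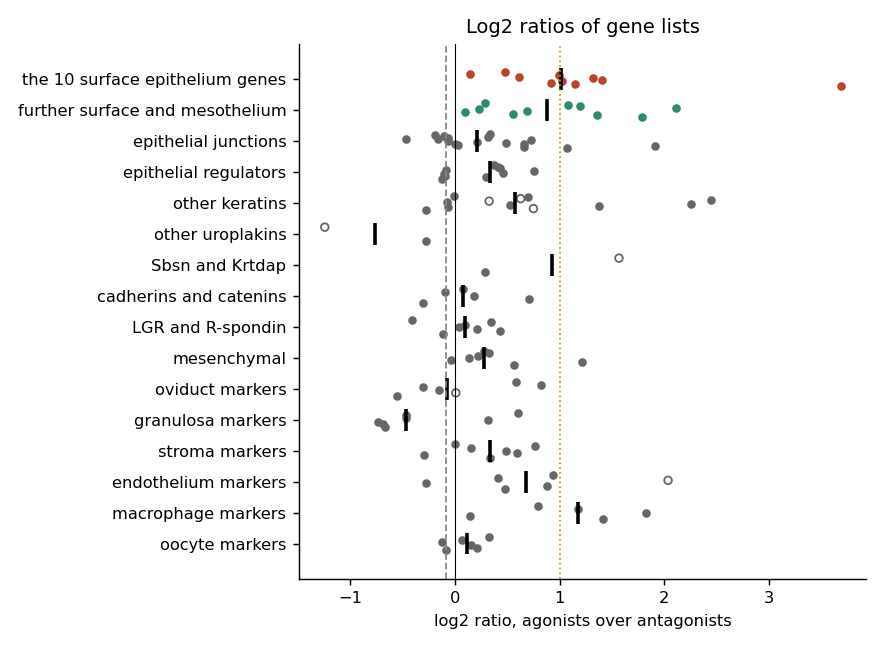
Log2 ratio, agonists over antagonists, of each gene of the lists described, with filled points for genes above background on both arrays, open circles for bounds, a black bar for the median of a list, a dashed line for the median of all genes at -0.08 and a dotted line for 2-fold. All genes of both surface epithelium lists lie above 0, as do those of the macrophage list and Sbsn and Krtdap, and the granulosa list has the lowest median after the other uroplakins.

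Genes of other cell types moved between the arrays as well, and their part in the result was not tested. Of all genes, 39.2% were above 0 and 4.51% at least 2-fold higher. All 5 macrophage genes were above 0 and 3 at least 2-fold higher, with a median of 1.18, which is above that of the 10 surface genes. Their signals summed to 8240 with the agonists against 5255 with the antagonists, with Mrc1 at 1.82 and Adgre1 at 1.42 on the log2 scale, and C1qb at 0.80 and Csf1r at 0.15. A dimmer probe of Adgre1 gave 0.72, under 2-fold. Of 6 endothelial genes, 5 were above 0 and 1 at least 2-fold higher, with a median of 0.68, a summed signal of 40749 against 30846, and Emcn at 0.93, Cdh5 at 0.88, Pecam1 at 0.48, Egfl7 at 0.41 and Kdr at -0.27. A dimmer probe of Kdr gave 0.38. The gene past 2-fold was Tek, above background with the agonists only, with a bound of 2.04. Of 7 stroma genes, 6 were above 0 and none was 2-fold higher, with a median of 0.34, and Tcf21 had 0.77, Pdgfra 0.60, Nr2f2 0.01 and Lum -0.30. Of 7 granulosa cell genes, 5 were below 0, also without scaling, with a median of -0.47. Their signals summed to 66410 with the agonists against 73347 with the antagonists, with Fshr at -0.73, Inha at -0.68, Gatm at 0.60 and Foxl2 at 0.32, where a dimmer probe of Foxl2 gave -0.37. The 6 oocyte genes had a median of 0.11, with Dppa3 at 0.32, Bmp15 at 0.21, Gdf9 at -0.08 and Zp3 at -0.13, and none was 2-fold changed. For the 10 surface genes the summed signal was 28877 against 10831.

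Oviduct epithelium shares keratins with the ovarian surface and can stay attached to a dissected ovary, so its markers were read too. Ovgp1, the secreted oviduct glycoprotein, read 91.3 with the agonists and 113 with the antagonists. Foxj1, the factor of ciliated cells, read 40.2 with the agonists and 42.0 with the antagonists. The log2 ratio was -0.55 for Ovgp1 and -0.31 for Foxj1. Pax8 was above background on the agonist array only, at 23.7 against 13.8, and Pax2 read 30.6 against 28.8. Sox17 had a log2 ratio of 0.83, where a dimmer probe gave 0.51, and Emx2 had 0.58. Of the 6 oviduct genes, 3 were above 0 and 3 below, and whether oviduct was attached was not tested. The unscaled signals of the 6 oviduct genes summed to 1435 with the agonists against 847 with the antagonists, with Sox17 and Emx2 the brightest.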

How the data were processed

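Total RNA of the cultured ovary pieces of each group was labelled with Cy3 and hybridised to 1 Agilent array per group. Per the labels and file headers, the arrays were read with Agilent Feature Extraction 10.10.1.1, and the authors deposited linear spot intensities that the software had corrected for background and that were not scaled between arrays. They also deposited a summary table, which was this signal multiplied by 1.99 for the agonists and 2.19 for the antagonists (to within a relative deviation of 4.97e-10), and whose column medians were 129 with the agonists and 115 with the antagonists. The array is a mouse design on an older assembly, so no array coordinates are given.

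Control spots were left out, log2 signals were reduced by the 75th percentile of their array, outlier spots were dropped and each probe was averaged over its remaining spots. A probe was taken as well above background if the software marked more than 50% of its spots so. Symbols came from RefSeq accessions (GRCm38.p6, used for names and gene order), which named 27224 probes. Of several probes, the one with the highest mean signal stood for the gene. Where 1 array only was above background, the dim value was raised to the dimmest signal that still counted as well above background (18.1 with the agonists, 19.9 with the antagonists), giving a lower bound of the fold.

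The genes and lists were chosen with earlier results of these data known. The text names all probes of the 10 genes, all genes of the further surface, Sbsn and Krtdap and other uroplakin lists, the 2 highest and 2 lowest genes on both arrays of each other list, and the 5 bright genes nearest to Dmkn in ratio. Other names were added after their values were seen. Scaling, background correction, spot and probe summaries, filter and threshold were varied; leaving out Dmkn was added after seeing the data. Python 3.11.15, pandas 2.3.3, R 4.3.3 and limma 3.58.1 (normexp) were used, and the ratio script was tested on simulated data. The arrays have no replicates, so nothing was tested.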

Additional observations from a re-analysis of the deposited data

How the results depend on the processing

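No paired analysis was possible because each group is 1 array and no test was made; for the same reason no array could be left out. All 110 alternative ratios of the 10 genes kept their sign, and 21 of them moved by more than the software error. The count of the 10 genes at least 2-fold higher was 5, and it was 3 with normexp, where Krt7 (0.90) and Upk1b (0.52) dropped out, and 1, Dmkn, at a 4-fold threshold. It was 7 unscaled and with the percentile of probes on both arrays, loess, spike-in scaling or the authors' summary values, 6 with quantile normalization and 4 with median scaling. The share of all genes past the threshold also moved with the setting. It was 4.51% in the main setting, 2.09% with normexp, 7.19% unscaled and 7.23% with spike-in scaling. It was 5.29% with the percentile of probes on both arrays, 5.38% with loess and 5.44% with the authors' summary values. Quantile normalization gave 4.53%, median scaling 4.07% and the 4-fold threshold 0.817%. The median of the 10 genes, 1.01, became 1.25 unscaled, 1.26 on the spike-in scale and 0.84 under normexp. The median of the further surface and mesothelium genes, 0.88, became 1.126 unscaled, 1.13 on the spike-in scale, 0.65 under normexp and 0.62 when dim probes were not filtered. Of 182 alternative medians of the other lists, 8 changed sign. The R-spondin and Wnt list had -0.09149 with normexp. The oviduct list, at -0.07, had 0.1695 without scaling and 0.1732 on the spike-in scale, 0.01452 with the percentile of probes above background on both arrays, 0.07682 with loess, 0.02937 with the authors' summary values, 0.15 with the mean over probes and 0.19 with no filter. The cause of these sign changes was not tested.

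Over all genes, 734 were at least 2-fold higher and 139 lower, which is 84.1% higher. These counts were 1170 and 78 unscaled (93.8% higher), 1177 and 78 on the spike-in scale, 340 and 48 under normexp, 133 and 24 at 4-fold, and 1349 and 554 with no filter, where 70.9% were higher. Signals near background, such as those of Upk1b with the antagonists, limit the ratios of dim probes.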

Other observations

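The genes beside the keratins on their chromosomes were read in RefSeq order, 4 to either side, and the values are given without an explanation. Beside Krt19, Krt15 had a log2 ratio of 2.26, Krt13 of 1.37, Krt36 of 0.59, Krt14 of 0.53 and Krt9 of 0.51, while Krt16 had -0.07. Krt17 was above background with the agonists only and was at least 1.26-fold higher. Beside Krt8 and Krt18, Krt79 had 0.70 and Krt76 0.64, while the neighbours that are not keratins had 0.01 for Eif4b, 0.28 for Tns2, -0.23 for Spryd3 and 0.33 for Igfbp6. Beside Krt7, Krt81 had 0.96, Krt86 0.01 and Krt80 -0.01. Krt87, next to Krt7, read 30.9 with the agonists against 59.9 with the antagonists, giving a log2 ratio of -1.20, and was the only one of these neighbours at least 2-fold lower. Beside Dmkn and past Krtdap, Ffar2, a receptor for short-chain fatty acids, read 110 with the agonists against 32.6 with the antagonists, giving a log2 ratio of 1.51, while the next gene, Ffar3, had -0.41.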
